A study of Canis lupus familiaris with 14 samples.

Results

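The genes described here are the multi-exon genes of gene-dense neighbourhoods of the dog genome. A gene was a member when it had 2 or more merged exon intervals, lay on one of 26 autosomes (chromosomes 2, 6, 8, 12, 13, 16, 20, 21, 26, 31, 35 and 36 were left out), and had 40 or more genes, itself included, with a midpoint within 500000 bases of its own. Membership is read from gene positions and exon structure, with no expression value of the gene itself, but the rule was written with results of these data known, and the 12 chromosomes it leaves out include some chosen for how their genes differed. The rule was met by 1891 of the 30951 genes in the deposited count table. The other 14075 multi-exon genes of the same 26 autosomes are the nearest comparison. Members lay on 14 of these autosomes, so the comparison also holds genes of chromosomes without members. The libraries were made from whole blood, 7 from dogs with the lymphocyte cancer lymphoma and 7 from controls ill with something else. The latter are called non-lymphoma or controls below. Nothing further about the animals, their treatment or the type of lymphoma is used here, and each library is treated as its own animal. Where libraries were not from separate animals, p-values would measure technical spread only.

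As background, mammalian genes are spread unevenly along chromosomes. Gene-dense stretches are typically rich in G and C, open and early replicating, with short introns and many broadly expressed genes, while gene-poor stretches hold longer genes, many of them restricted to certain tissues. The table lists Ensembl identifiers in CanFam3.1 coordinates and no symbols, and the reference gene table matched 0 of them. Genes are therefore given by position and exon structure, their functions are not stated, and markers of blood cell types could not be checked. In bulk blood, fewer cells of a type and less RNA per cell cannot be told apart.

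Members were compact. Their median span, from the first to the last annotated base, was 7965 bases, with quartiles of 3357 and 17629. The other multi-exon genes had a median span of 21120 bases and quartiles of 5816 and 59300. Exonic length hardly differed, with medians of 1721 bases in members and 1684 bases in the others, so that exons filled a median of 23.6% of a member's span and 8.38% of the span of the others. The median number of exons was 7 in members and 6 in the others. A member had a median of 48 genes in its window, at most 79, of which a median of 42 were multi-exon. Exonic bases were shared with another gene in 310 members (16.4%), 240 of them with a gene on the opposite strand, against 8.48% of the other multi-exon genes. The counting was not set to use strand, so reads in such shared stretches cannot be assigned to either partner, and counts of these members are uncertain to that extent.

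Totals ran from 9845059 to 14831589 counts in lymphoma and from 13522628 to 21610927 in the controls. Of the 1891 members, 1187 passed the filter on low counts and were tested. The 704 untested members were short, with a median span of 5120 bases and a median of 4.5 exons, and 33 of them had no count in any library. The filter passed 62.8% of members and 46.6% of the other multi-exon genes. The filter asks for a level of 0.705 CPM (counts per 1000000 in the library) in 7 libraries, of either group. A member that passed through 1 group alone had to differ, so its call is no independent support. At most 3 lymphoma libraries reached that level in 39 tested members, 7 of them called lower, and at most 3 control libraries in 10, of which 2 were called higher. Among the 1138 remaining tested members 149 were lower (13.1%) and 24 higher (2.11%), with a median log2 fold change of -0.30, against 7.11% and 9.40% of the 12156 genes left by the same criterion.

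The design sets blood of dogs with lymphoma against blood of the controls. Far more tested members were called lower than higher in lymphoma. By edgeR's quasi-likelihood test at an adjusted p under 0.05, 156 of 1187 were lower (13.1%) and 26 were higher (2.19%). Across all 12836 tested genes the shares were 7.4% lower and 9.21% higher, and among the 6556 tested other multi-exon genes they were 5.41% lower and 11.5% higher. The median log2 fold change, lymphoma over non-lymphoma, was -0.31 in tested members, with quartiles of -0.63 and 0.01, and -0.05 in all tested genes. It was 0.04 in the other multi-exon genes, a value that became -0.01 with upper-quartile factors. The difference between members and these others was -0.35, and with no filter on low counts it shrank to -0.136, from medians of -0.54 and -0.40. A fold change below 0 was found in 74.4% of tested members and in 47.2% of the others. These others include genes of autosomes without members, and values within single chromosomes are given further below. On the 12 chromosomes left out, multi-exon genes with as dense a window had 114 of 780 lower calls (14.6%), 16 higher calls (2.05%) and a median log2 fold change of -0.34.

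Most calls were of moderate size on the lower side and larger on the higher side. Members called lower had a median fold of 1.81, and 52 of the 156 fell by a log2 fold of 1 or more. Members called higher had a median fold of 3.01, and 22 of the 26 rose by at least that much. All 7 lymphoma libraries lay below all 7 non-lymphoma libraries in log2 CPM (the log2 of a gene's share of the library, scaled by TMM factors) for 45 tested members (3.79%), against 1.75% of all tested genes. The opposite separation held for 3 members (0.253%), against 2.03% of all tested genes. Without lymphoma replicate 5, 103 members were lower (8.50%) and 19 higher (1.57%), against 4.39% and 6.53% of all genes in that fit. Without lymphoma replicates 2 and 7, a setting chosen after seeing the data, 80 were lower (6.48%) and 35 higher (2.84%), against 3.93% and 5.89% of all genes, and the median log2 fold change was -0.25.

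Library depth moved with the groups, since 6 of 7 lymphoma totals lay below every non-lymphoma total. With counts drawn down to the smallest library in all samples, 156 of 1153 tested members were called lower (13.5%) and 25 higher (2.17%), against 7.67% and 9.48% of all genes in that fit, and the members' median log2 fold change was -0.30. Sample numbers of the 7 non-lymphoma libraries, and of lymphoma replicates 5 and 6, have 5 digits. Whether this form marks a batch is not stated. Within these 9 libraries the median log2 fold change of 1300 tested members was -0.27, close to the value in all libraries. There edgeR called 4 members lower (0.308%) and 5 higher (0.385%), against 0.151% and 0.562% of all genes tested there. At an unadjusted edgeR p under 0.05, 162 members were lower (12.5%) and 39 higher (3%) in this smaller set, against 8.20% and 8.09% of all genes.

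Over all spans together, the median fold change fell with the local number of genes up to 30 to 39. It was level at 40 to 49 and lowest at 50 or more. Among multi-exon genes with 1 to 9 genes in the window, the gene-poor end, 14.9% of tested genes were called higher and 3.27% lower, and the median log2 fold change was 0.22. With 10 to 19 genes the values were 13.8% higher, 3.62% lower and a median of 0.14. At 20 to 29 genes the calls were near balance, 9.5% higher and 6.61% lower, with a median of -0.06. With 30 to 39 genes, just short of membership, 3.9% were higher and 11.9% lower, with a median of -0.28. Members with 40 to 49 genes had 2.67% higher, 11.5% lower and a median of -0.28. In the densest class, 50 or more genes, 7 of 475 tested members were higher (1.47%) and 74 were lower (15.6%), with a median of -0.35. Over all spans together, no step was seen at the threshold of the rule. Just outside it, 243 tested genes with 37 to 39 genes in the window had 33 lower and 7 higher calls and a median of -0.35, and just inside it 262 with 40 to 42 had 33 and 7 and a median of -0.24. Among genes spanning under 5000 bases the order was not kept. Their medians were -0.18 at 1 to 9 genes, -0.09 at 10 to 19 and -0.30 at 50 or more. From 30 to 39 to 40 to 49 genes, long genes differed more than short ones. The median went from 0.06 (56 tested) to -0.18 (16 tested) at 100000 bases or more. It went from -0.10 (84 tested) to -0.25 (54 tested) at 50000 to under 100000. In the shorter span classes it was -0.33 to -0.30 and then -0.31 to -0.27.

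**Figure D1:**
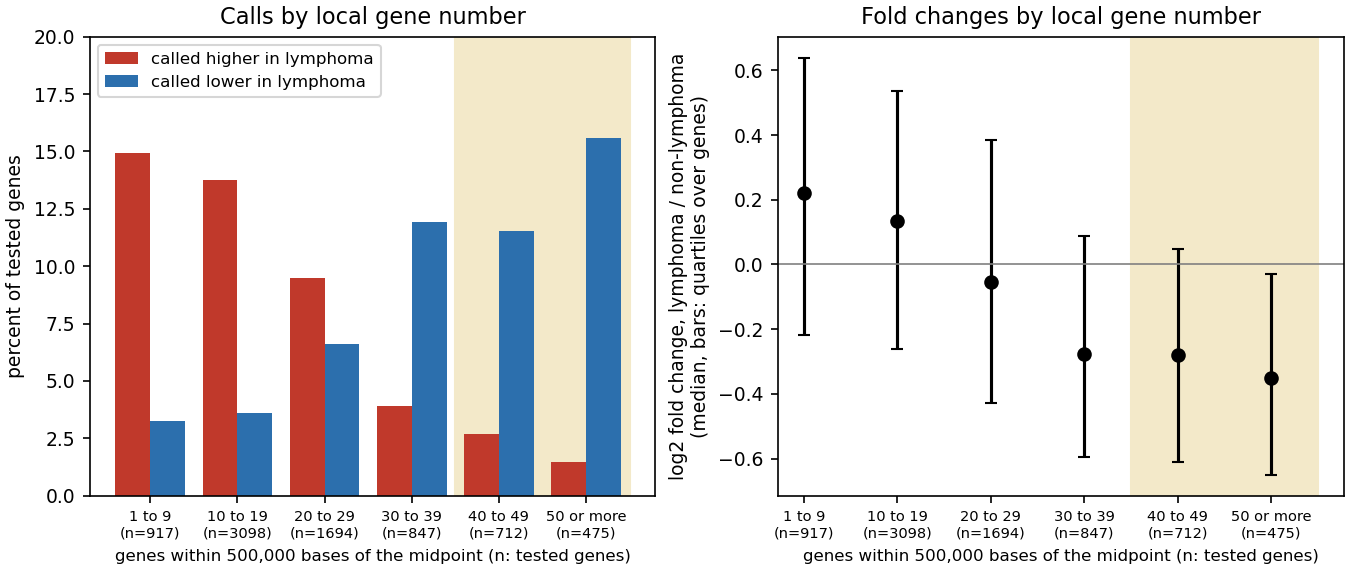
Multi-exon genes of the 26 autosomes by the number of genes within 500000 bases of their midpoint. Left, percent of tested genes called higher (red) or lower (blue) in lymphoma; right, median log2 fold change with quartiles over genes. The shaded classes are the members, where lower calls (11.5% and 15.6%) outnumber higher calls (2.67% and 1.47%).

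Over the members, most individual libraries were ordered by group. The mean log2 CPM over the 1187 tested members was 3.14 in lymphoma replicate 2, 3.33 in replicate 7, 3.53 in replicate 5 and between 3.65 and 3.68 in the other 4 lymphoma libraries. In the non-lymphoma libraries it ran from 3.66 to 3.91 with a median of 3.83. All lymphoma libraries but replicate 1 lay below the whole control range, and all 7 lay below the non-lymphoma median. Lymphoma replicate 4 did so only just, with 3.6635 against 3.66362 in non-lymphoma replicate 4. The group means were 3.52 ± 0.21 and 3.82 ± 0.09 (SD, n = 7 each). Lymphoma replicates 2 and 7, the lowest on the members, also had the smallest totals, 9846590 and 9845059 counts. The part of depth in their low values was not tested beyond the thinned fit. Without them the difference of means was -0.19 in place of -0.30, and within the 5-digit libraries it was -0.23. The spread of the members' mean was wider in lymphoma than in non-lymphoma blood.

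The gene-poor end of the same chromosomes was ordered the other way. There the mean log2 CPM was 3.66 to 3.97 in lymphoma libraries, with a median of 3.82, and 3.38 to 3.82 in the controls, with a median of 3.63. Lymphoma replicates 2 and 7, lowest over the members, had 3.94 and 3.97 there and were among the highest. Non-lymphoma replicate 7 had the highest mean over the members, 3.91, and the lowest over the gene-poor genes. The groups overlapped in the members' mean minus the gene-poor mean, with 4 of 7 lymphoma libraries below all controls. It was -0.092 and -0.034 in non-lymphoma replicates 4 and 3, and -0.012 and -0.002 in lymphoma replicates 1 and 6. Each CPM is relative to the library's other genes, so the 2 ends are not independent measurements. The middle class of 20 to 29 genes ranged from 3.83 to 3.90 in lymphoma and from 3.79 to 3.97 in the controls, which overlapped.

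Counts on all 1891 members, tested or not, made up 3.70% to 6.41% of a lymphoma library, with a median of 5.46%, and 5.63% to 9.06% of a non-lymphoma library, with a median of 7.06%. The means were 5.33 ± 1.01% and 7.15 ± 1.06% (SD, n = 7 each), and the ranges overlapped. A few very abundant genes take a large part of blood RNA. When the 20 most abundant genes of the table were left out, the members took 7.68% to 9.70% in lymphoma and 9.85% to 11.2% in the controls. The ranges then no longer overlapped, and the means were 9.07 ± 0.70% and 10.5 ± 0.53% (SD, n = 7 each). Within the 5-digit libraries the share was lower, with a difference of -1.26 percentage points, and of -1.70 with all genes counted.

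**Figure D2:**
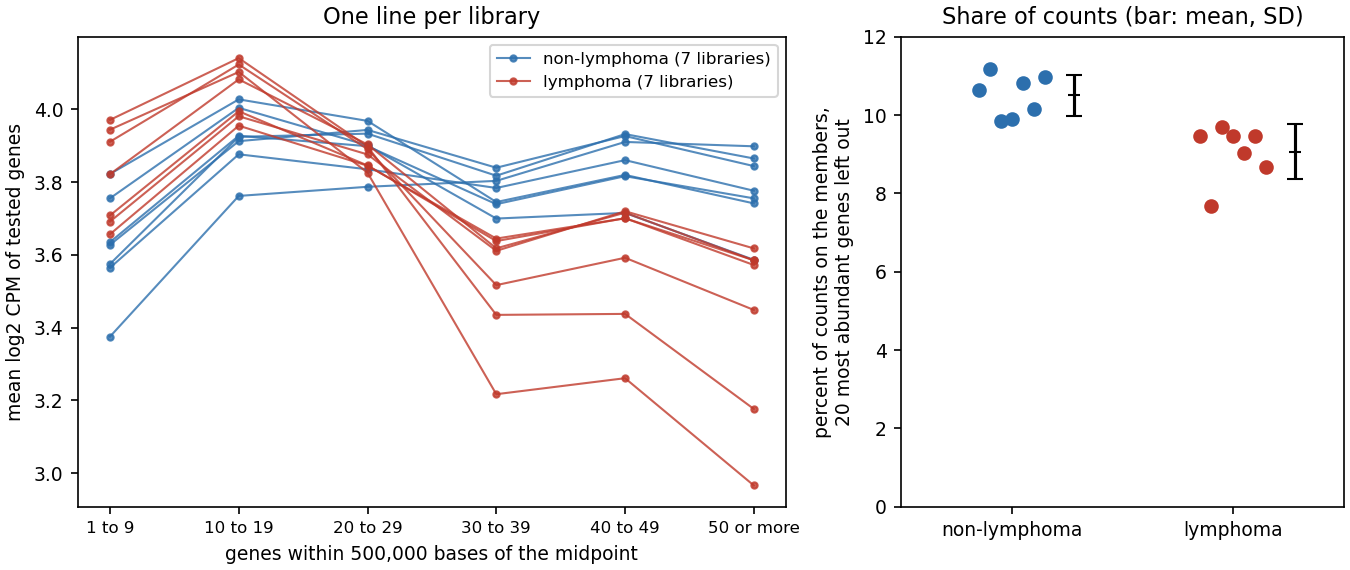
Left, mean log2 CPM of tested multi-exon genes by local gene number, with 1 line per library (red, lymphoma; blue, non-lymphoma). Right, percent of counts on the members with the 20 most abundant genes left out, 1 point per library with mean and SD. Lymphoma lines lie mostly above the others at the left end and below them from 30 genes on, and the shares are 7.68% to 9.70% against 9.85% to 11.2%.

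Gene span and local gene number are tied, since compact genes are found where genes are dense. Among genes that are not members, the fold change moved with span, from a median log2 value of -0.22 under 5000 bases to 0.13 at 20000 to under 50000 bases, 0.16 at 50000 to under 100000 and 0.14 at 100000 or more. Among members it hardly moved with span. Their medians were -0.30, -0.33, -0.32, -0.30, -0.33 and -0.28 in the 6 span classes, from under 5000 to 100000 or more bases. The gap between members and other genes was therefore small among the shortest genes, -0.30 against -0.22, and wide among long ones, -0.33 against 0.16 at 50000 to under 100000 bases.

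Calls followed the same lines. Of the 332 tested members with a span under 5000 bases, 9.34% were called lower, against 9.30% of the 731 short genes elsewhere. Of the 30 tested members spanning 100000 bases or more, 9 were called lower and 1 higher, while among 1286 other genes of that size 44 were lower and 181 higher. With 50 or more genes in the window, 16 tested members of 50000 to under 100000 bases and 14 longer ones had the lowest medians, -0.51 in each. These last classes hold few genes.

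Among other multi-exon genes the fold change moved less with exonic length than with span. Their median log2 fold change was 0.00 under 1000 exonic bases, 0.03 at 1000 to under 2000, 0.07 at 2000 to under 4000 and 0.05 above. In members it was -0.27, -0.31, -0.32 and -0.34 in the same classes. Lower calls among members ran from 10% in the shortest to 14.5% at 2000 to under 4000 bases.

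**Figure D3:**
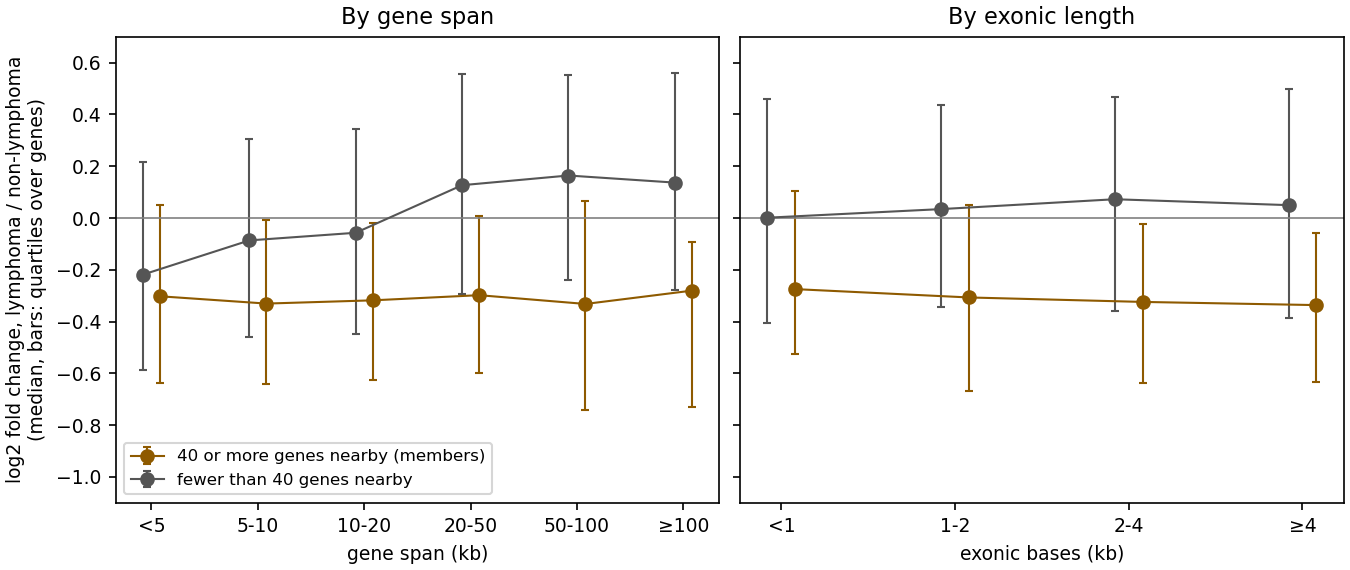
Median log2 fold change (points) with quartiles over tested genes (bars) by gene span (left) and exonic length (right), for members (brown) and other multi-exon genes of the same autosomes (grey). Members lie between -0.27 and -0.34 in all 10 classes, while the others run from -0.22 to 0.16 by span.

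The members' lower values were found at all count levels and exon numbers. Between an average log2 CPM under 2 and 6 or more, the median log2 fold change of members was -0.33, -0.28, -0.33 and -0.30 in 4 classes. The share called lower was smallest, 6.84%, in the class under 2, where the test has the fewest counts, and largest, 17.7%, at 4 to under 6. Members with 2 exons had a median of -0.32 and those with 21 or more exons one of -0.34, with 18.4% of the latter called lower against 4.37% of other genes with as many exons. Tested members that share exonic bases with another gene had 31 of 245 lower calls and a median of -0.30, and members that share none had 125 of 942 and a median of -0.32.

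Members lay on 14 chromosomes, most of them on chromosomes 1 (440), 9 (405), 18 (240) and 5 (239). On each of these 4, the median log2 fold change of tested members was below that of the other multi-exon genes of the same chromosome. It was -0.32 against -0.03 on chromosome 1, -0.29 against -0.08 on chromosome 9, -0.35 against -0.19 on chromosome 18 and -0.37 against -0.13 on chromosome 5. On chromosome 27 the values were -0.45 and 0.14, with 11 of 55 tested members called lower, whereas 40 of 250 other genes were higher and 6 lower. Chromosome 24 had 9 of 37 tested members called lower (24.3%) and a median of -0.46. Chromosomes 17 and 37 had the medians nearest to 0, -0.17 and -0.18.

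Grouped by position, members formed 39 neighbourhoods, runs in which the midpoints of consecutive members were at most 500000 bases apart. They held 2 to 167 members. Of these, 30 neighbourhoods had at least 10 tested members, and the median log2 fold change was below 0 in all 30, from -0.55 to -0.13. Lower calls outnumbered higher ones in 27. The exceptions were the stretch at chr18:25345364-25899079, with 3 higher and 2 lower calls, that at chr9:42597792-43226882, with 1 higher and 0 lower, and that at chr24:32612386-33199854, with no call. The first of these had a median of -0.44 and the last one of -0.46.

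Among these 30 neighbourhoods the lowest median, -0.55, belonged to the end of chromosome 9 at 30783 to 909492, where 9 of 36 tested members were lower. Its mean log2 CPM was 3.36 ± 0.42 in lymphoma and 3.99 ± 0.21 in the controls (SD, n = 7 each), and 6 of 7 lymphoma libraries lay below the whole control range. Lymphoma replicate 2 was the lowest and lay apart from the next one by 0.667 of the lymphoma range, which lowers that mean. The largest share of lower calls among the 30 was at chr24:46541760-47537250, with 9 of 26 tested members (34.6%) and a mean of 3.60 ± 0.24 against 4.11 ± 0.21 (SD, n = 7 each). Next came chr17:21140794-21459935, with 3 of 11, and chr9:48032709-50091553, with 12 of 47. The latter also had 3 higher calls. The largest neighbourhood by members, chr1:105022792-108345885, held 167, of which 87 were tested, 9 called lower and 1 higher, and with a median of -0.30. In the densest, chr5:31319717-33121945 with up to 79 genes in a window, 7 of 72 were lower and 1 higher, with a median of -0.34. Lower calls made up 10.3% in the largest and 9.72% in the densest, not far above the 7.4% across all tested genes.

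Among the 30 neighbourhoods, higher calls had the largest shares at chr18:25345364-25899079 (3 of 23 tested members), at chr15:17287925-18179029 (1 of 12) and at chr10:145036-1709994 (4 of 58). Across all tested genes 9.21% were called higher. The chromosome 15 and chromosome 10 stretches lay below that share, and only the chromosome 18 stretch lay above it. In the chromosome 10 stretch 6 members were called lower, and its median was -0.14.

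**Figure D4:**
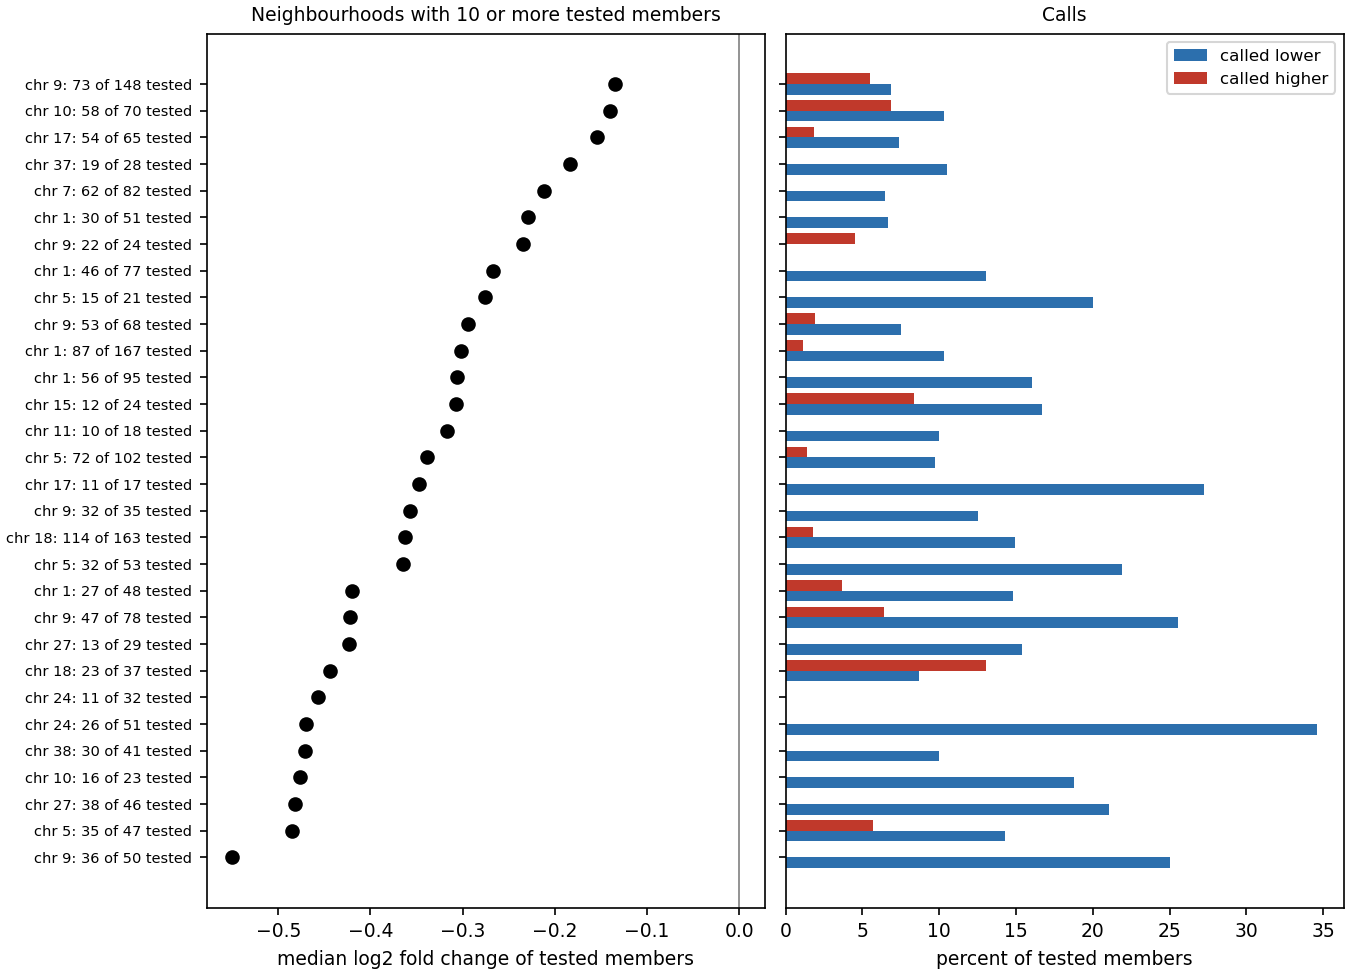
The 30 neighbourhoods with at least 10 tested members, ordered by the median log2 fold change of those members (left), with the percent called lower (blue) and higher (red) on the right. All 30 medians lie between -0.55 and -0.13.

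Single members went far beyond these medians in both directions. The largest rise was that of ENSCAFG00000019701, a 23-exon gene at chr9:49161034-49202935. It had 0.45 to 63.7 CPM in lymphoma libraries, with a median of 5.90, and 0 to 2.01 CPM in the controls, with a median of 0.72. Lymphoma replicate 1 held the top value, and 6 of 7 lymphoma libraries lay above the whole control range. The log2 fold change was 3.97 (standard error 0.88, adjusted p = 0.00928 in edgeR) and 2.69 without replicate 1, still called.

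ENSCAFG00000019348, a 3-exon gene of 627 exonic bases at chr5:56236318-56404695, had 10.5 to 160 CPM in lymphoma, with a median of 130, and 0.77 to 36 CPM in the controls, with a median of 7.16. Lymphoma replicates 1 and 7 were the low ones, and the groups overlapped. Its log2 fold change was 3.37 (standard error 0.70, adjusted p = 0.00686 in edgeR). It shares exonic bases with a gene on the other strand, and it encloses a 40-exon gene at 56239701 to 56272745 that was also called higher, with a log2 fold change of 2.33 (standard error 0.67, adjusted p = 0.0286 in edgeR). The call of the enclosed gene did not hold without any one of lymphoma replicates 2, 4 and 5 and non-lymphoma replicates 6 and 7, nor with limma-voom (log2 fold change 1.52, adjusted p = 0.268).

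The groups did not overlap for 2 of the 12 largest rises. The rises were picked by call and fold change in these same libraries. Their separation, and calls in part of the libraries, are therefore no independent support. A 9-exon gene at chr9:48207392-48220047 had 26.3 to 113 CPM in lymphoma, with a median of 49.5, and 5.12 to 14.9 CPM in the controls, with a median of 8.41. Its log2 fold change was 2.62 (standard error 0.36, adjusted p = 0.000815 in edgeR), and it was also called within the 5-digit libraries (log2 fold change 2.24, adjusted p = 0.0201 in edgeR). A 4-exon gene of 384 exonic bases at chr18:38539190-38540303 had 1.33 to 12.03 CPM against 0.27 to 0.77 CPM. It was tested because of the lymphoma group, so its log2 fold change of 3.28 (standard error 0.50) is given as a description. The most abundant riser in CPM was a 19-exon gene at chr9:4254649-4310589, with 340 to 1457 CPM in lymphoma against 99.6 to 419 CPM, a log2 fold change of 1.68 (standard error 0.35, adjusted p = 0.00686 in edgeR). Of the 12 rises 6 lay on chromosome 9, 3 on chromosome 18, 2 on chromosome 5 and 1 on chromosome 10. Their log2 fold changes ran from 1.49 to 3.97, 9 of them were called in each fit with 1 library left out, and 3 were called within the 5-digit libraries. The rises not called in each of those fits were the enclosed chromosome 5 gene, a 6-exon gene at chr18:25461617-25463721 and a 9-exon gene at chr10:1202025-1218280. The chromosome 18 gene was not called when any one of lymphoma replicates 1, 4 and 5 or non-lymphoma replicates 2, 4, 5, 6 and 7 was removed. For the chromosome 10 gene the same held for lymphoma replicates 2 and 7 and non-lymphoma replicates 2, 5 and 6, and with limma-voom its adjusted p was 0.0578. The chromosome 18 gene of 384 exonic bases reached the level of the filter in 7 lymphoma and 2 control libraries, so it had to differ. It is among the 9 rises called in each fit with 1 library left out and the 3 called within the 5-digit libraries. Its calls and its separation are no independent support.

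The largest fall was that of ENSCAFG00000044070, a 4-exon gene at chr27:38268342-38273823. It had 0 to 16 counts in lymphoma libraries, 0 to 1.06 CPM, and 24 to 287 counts in the controls, 1.06 to 15.6 CPM with a median of 2.59. It reached the level of the filter in 7 control and 2 lymphoma libraries, so it was tested because of the controls and had to differ. Its log2 fold change is given as a description, -3.30 with a standard error of 0.74, and 6 of 7 lymphoma libraries lay below the whole control range. It shares exonic bases with a gene on the other strand. In the same neighbourhood ENSCAFG00000014011, a 14-exon gene at 37777489 to 37809739, fell by 2.66 (standard error 0.88, adjusted p = 0.0474 in edgeR). This second call rests on few libraries and was not made by limma-voom (log2 fold change -1.13, adjusted p = 0.461). Non-lymphoma values ran from 0.21 to 31.1 CPM with a median of 1.83, lymphoma values of 0.45 to 1.52 CPM lay inside that range, and the call did not survive the removal of any single lymphoma library, nor that of non-lymphoma replicates 1, 5 and 6 one at a time, with a log2 fold change as small as -1.34.

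Complete separation marked 3 of the 12 largest falls, all on chromosome 1. The falls were picked by call and fold change in these same libraries. Their separation, and calls in part of the libraries, are therefore no independent support. A 13-exon gene at 108307042 to 108316495 had 5.31 to 31.1 CPM in lymphoma, with a median of 13.9, and 48.2 to 82.1 CPM in the controls, with a median of 66.8, and fell by 2.01 (standard error 0.29, adjusted p = 0.000978 in edgeR). A 20-exon gene spanning 113644100 to 113828488 had 27.6 to 74.2 CPM against 96.9 to 217 CPM and fell by 1.60 (standard error 0.25, adjusted p = 0.00174 in edgeR). A 2-exon gene at 109976930 to 110048532 had 0.68 to 2.70 CPM against 3.99 to 12.97 CPM and fell by 2.13 (standard error 0.34, adjusted p = 0.002 in edgeR). The 13-exon and the 2-exon gene were also called within the 5-digit libraries, with log2 fold changes of -2.40 and -3.20 (adjusted p = 0.00571 and 0.0253 in edgeR). The 20-exon gene was not (-1.89, adjusted p = 0.0558 in edgeR), and it shares exonic bases with a gene on the other strand.

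A 21-exon gene at chr15:18160835-18179029 had 0.46 to 12.4 CPM in lymphoma and 8.98 to 40.2 CPM in the controls, and fell by 2.44 (standard error 0.55, adjusted p = 0.00991 in edgeR). A 4-exon gene at chr9:22068775-22090656 fell by 2.04 (standard error 0.51, adjusted p = 0.0147 in edgeR), with 9.56 to 23.2 CPM in lymphoma inside a non-lymphoma range of 4.28 to 122 CPM, and was not called by limma-voom (-1.48, adjusted p = 0.117). Besides the largest fall, the genes at chr5:56614201-56619693 and chr18:25733090-25755658 passed the filter through the controls, with 2 and 3 lymphoma libraries at its level. Of the 12 falls 4 share exonic bases with another gene, and 9 were called in each fit with 1 library left out. These 9 include the largest fall and the chromosome 18 gene, both tested because of the controls, whose calls are no independent support. Within the 5-digit libraries 2 of the 12 falls were called, and all 12 falls and all 12 rises kept their sign. These genes were picked on all libraries, the 5-digit ones included, so calls and signs kept there are no independent support. Besides that of ENSCAFG00000014011, the calls lost with 1 library left out were those at chr5:56614201-56619693 and chr27:5490441-5494636, both without non-lymphoma replicate 5.

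**Figure D5:**
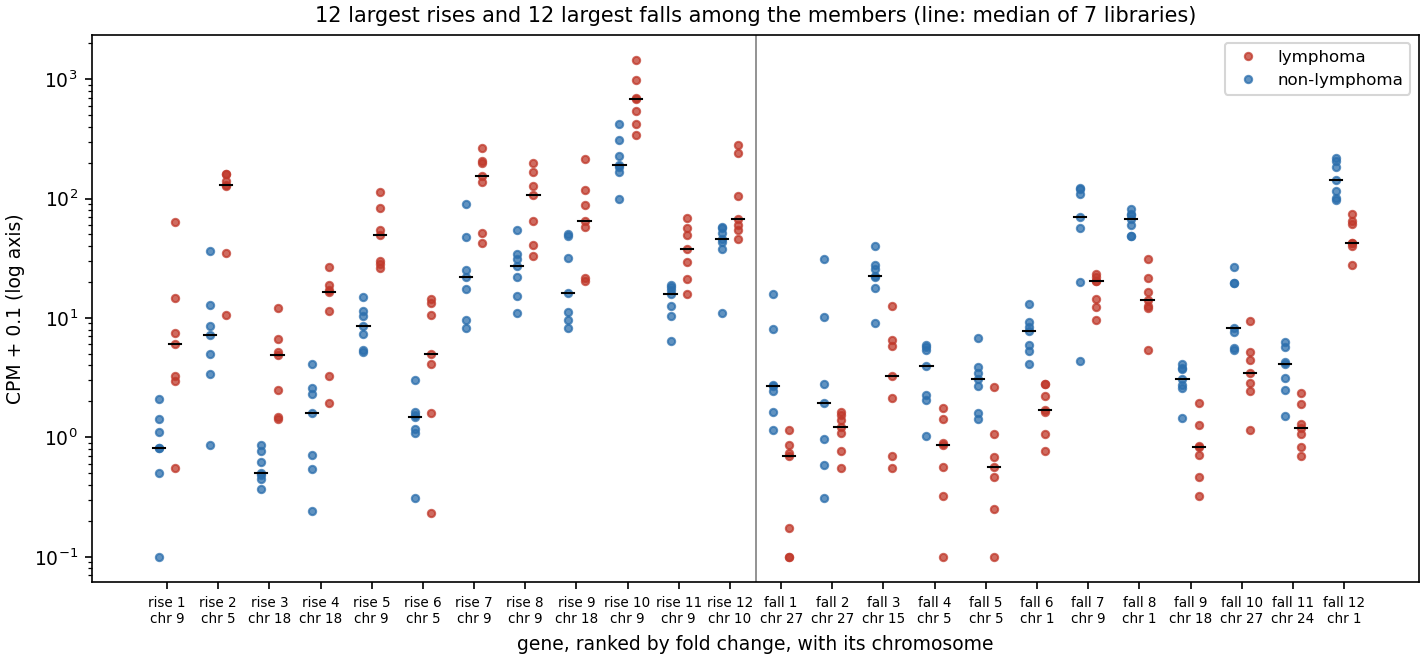
CPM plus 0.1 on a log axis in each library for the 12 largest rises and the 12 largest falls among members, ranked by log2 fold change, with the median of 7 libraries as a line. The groups do not overlap for rises 3 and 5 and for falls 6, 8 and 12. The genes were picked by call and fold change in these same libraries. Rise 3 was tested because of the lymphoma group and had to differ.

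The 3 members with the highest mean CPM were not called. A 58-exon gene at chr11:52227611-52259915 had 1443 to 2702 CPM in lymphoma and 1937 to 3612 CPM in the controls (log2 fold change -0.34, standard error 0.22, adjusted p = 0.293 in edgeR). A 4-exon gene at chr1:107418458-107419923 had 1380 to 3695 against 1285 to 2977 CPM (0.16, standard error 0.26, adjusted p = 0.681 in edgeR). A 4-exon gene at chr9:635978-638328 had 835 to 2307 against 1272 to 3193 CPM (-0.26, standard error 0.28, adjusted p = 0.533 in edgeR). Per kilobase of exon in non-lymphoma blood their means were 346, 2068 and 964 CPM, so the chromosome 1 gene ranked first on that scale.

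In the 3 neighbourhoods with the largest shares of lower calls, the member with the lowest p had groups that did not overlap. These were a 10-exon gene at chr24:47353573-47369356, with 7.42 to 9.26 against 13.2 to 23.2 CPM, a 15-exon gene at chr17:21326503-21331857, with 25.1 to 37.6 against 39.96 to 89.0 CPM, and a 12-exon gene at chr9:49113923-49120591, with 8.89 to 28.3 against 30.4 to 76.4 CPM. They fell by 1.03, by 0.82 and by 1.33 on the log2 scale, with SEs of 0.16, 0.19 and 0.28. Their adjusted p-values in edgeR were 0.00174, 0.0109 and 0.00711, and the chromosome 9 gene shares exonic bases with another gene. Within the 5-digit libraries none of these 3 was called (adjusted p = 0.107, 0.337 and 0.275 in edgeR). They were picked for a low p, so their separation is no independent support. On the higher side, the corresponding genes outside the list above were a 15-exon gene at chr15:17705975-17716094 (log2 fold change 1.90, standard error 0.52, adjusted p = 0.0226 in edgeR, and called neither without lymphoma replicate 4 nor by limma-voom, adjusted p = 0.0616) and a 34-exon gene at chr10:1159812-1193153 (1.48, standard error 0.32, adjusted p = 0.00859 in edgeR).

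Some named members with opposite fold changes lay near each other. Whether other genes lie between them was not examined. On chromosome 9 the largest rise and the 12-exon gene that fell by 1.33 were 40442 bases apart. On chromosome 18 a 2-exon gene at 25709049 to 25709404 rose, with a log2 fold change of 3.05 (standard error 0.64, adjusted p = 0.0072 in edgeR), and 23685 bases away a 21-exon gene at 25733090 to 25755658, tested because of the controls, had a log2 fold change of -1.84 (standard error 0.41). The chromosome 10 genes at 1159812 and 1202025, 8871 bases apart, had log2 fold changes of 1.48 and 1.49. Within the 5-digit libraries these were 0.77 and 0.39, neither called (adjusted p = 0.296 and 0.69 in edgeR). At 1202025 lymphoma replicates 2 and 7 had 241 and 282 CPM and the other 5 lymphoma libraries 45.3 to 105 CPM, and without those 2 replicates the log2 fold changes at 1159812 and 1202025 were 0.96 and 0.61, the second not called (adjusted p = 0.222 in edgeR). Around the 26 members called higher, the other tested multi-exon genes of the window had a median log2 fold change that was below 0 in 23 cases, with a median over the 26 of -0.31. Around the 156 members called lower the corresponding value was -0.34, and around the 1005 uncalled members it was -0.31.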

How the data were processed

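Whole blood RNA of dogs was measured in 7 lymphoma and 7 non-lymphoma libraries, each treated as its own animal. The authors deposited 1 table of raw counts per gene, made with featureCounts 2.0.1 on exons of Ensembl release 103, per the file headers, with no strand, multi-mapping or multi-overlap option. HISAT2 2.2.1 and CanFam3.1 are named per the submitters' processing notes. Length and exon positions come from the same table.

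Exon intervals of a gene were merged, and local gene numbers were counted over all 30951 genes. Counts were fitted with edgeR 4.0.16 in R 4.3.3 (TMM factors, filterByExpr, quasi-likelihood F test, group as the only term, Benjamini-Hochberg over 12836 tested genes, called at 0.05). Log2 CPM used a prior count of 2. The fit was tested on drawn counts with known changes. Biological variation (BCV) came to 41.5%. A standard error is the size of the log2 fold change over the root of its F value.

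The members and lists were chosen with earlier results of these data known, so no p is given for any value over the members. Named genes are the 12 largest rises and 12 largest falls among called members whose log2 CPM averaged 1 or more and whose fold change was shared in sign by 6 of 7 lymphoma libraries set against the non-lymphoma median, the 3 members with the highest mean CPM, and the member with the lowest p in the 3 neighbourhoods with the largest share called each way (at least 10 tested members). Strata by count level, exon number and exonic overlap, the tally of members by the group that passed the filter, and the values on chromosomes left out were added after seeing the data. Alternatives covered scaling, filters, DESeq2 1.42.0, limma 3.58.1, thinning, a replicate block, subsets of libraries and the definition of members.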

Additional observations from a re-analysis of the deposited data

Results flagged for a closer look

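Each of 134 sets of 7 libraries (5 measures over the members, the 32 named genes and the 30 neighbourhoods, in both groups) was searched for a single distant library, measured as its distance from the next one over the whole range. There were 3, and 6.7 would arise by chance at 1 in 20. For the gene at chr10:1202025-1218280 it was the lowest log2 CPM, in non-lymphoma replicate 7 (0.74 of the range). For the gene at chr1:107418458-107419923 it was the highest, in lymphoma replicate 7 (0.579). For the mean over the neighbourhood chr9:30783-909492 it was the lowest, in lymphoma replicate 2 (0.667).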

How the results depend on the processing

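The median log2 fold change of tested members stayed between -0.36 and -0.25 under the scalings, tools, subsets of libraries and filters tried, except for -0.54 with no filter on low counts, where genes with almost no counts enter and the median of all genes was -0.45. The difference from the other multi-exon genes, -0.35, ran from -0.39 to -0.26 under all other settings and was -0.136 with no filter. Members called higher and lower numbered 26 and 156. These counts became 52 and 246 with DESeq2 (4.38% and 20.7%, against 13.3% and 11.5% of all genes). They were 10 and 31 at an adjusted p under 0.01 (0.842% and 2.61%, against 2.60% and 1.26%), and 59 and 281 at 0.1 (4.97% and 23.7%, against 14.3% and 13.2%). Within the 5-digit libraries they were 5 and 4 (0.385% and 0.308%, against 0.562% and 0.151%). At an average log2 CPM of at least 3, 15 of 759 tested members were higher (1.98%, against 11.2% of all genes). Without lymphoma replicates 2 and 7, 80 were lower and 35 higher (6.48% and 2.84%, against 3.93% and 5.89%). With 1 library left out, lower calls ran from 103 without lymphoma replicate 5 (8.50%, against 4.39%) to 195 without lymphoma replicate 6 (16.2%, against 8.62%). Other definitions of members change the number of genes. Calls were then 59 higher and 257 lower with 30 or more genes, 7 and 74 with 50 or more (1.47% and 15.6%), and 97 lower with 80 genes in 1000000 bases. Of all genes 9.21% were higher and 7.4% lower in that fit, and shares for the first and last definition are not given. With the replicate number as a replicate block the counts were 16 and 53 (1.35% and 4.47%, against 3.43% and 2.22% of all genes). Of the 32 named genes, 5 lost their call with limma-voom and 8 with the block. The labels link no animals by number, same-numbered libraries had correlations of deviations from -0.34 to 0.35, and 1 of 7 lymphoma libraries correlated best with its own number. The chromosome 1 gene starting at 107418458, not called, changed sign within the 5-digit libraries (-0.26), without lymphoma replicate 7 (-0.039) and without lymphoma replicates 2 and 7 (-0.083), and ranged from -0.039 to 0.31 with 1 library left out. The cause was not tested except where fewer genes, fewer libraries or another threshold enter by construction. An average log2 CPM under 2 was found in 263 tested members.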

Other observations

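The 9 neighbourhoods with fewer than 10 tested members held 101 members, 27 of them tested. At chr18:38209651-41219334, 148 genes lay between the first and the last member, of which 40 were members and 9 were tested, with 1 called higher, 1 called lower and a median log2 fold change of -0.17. At chr5:9975668-10572865, 1 of 16 members was tested. At chr38:22521555-23331613, 6 of 19 members were tested, none was called, and the median was 0.21, above 0 unlike those of the 30 neighbourhoods with at least 10 tested members. At chr25:50482071-50738333, 2 of 11 members were tested, 1 was called lower, and the mean log2 CPM over these 2 was 4.73 ± 0.46 in lymphoma against 5.52 ± 0.22 in the controls (SD, n = 7 each).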
